A study of Homo sapiens with 18 samples.

Results

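The metallothioneins are a family of small cysteine-rich proteins that hold zinc and copper ions, and 10 of their genes, MT1A, MT1B, MT1E, MT1F, MT1G, MT1H, MT1M, MT1X, MT2A and MT3, are described here across cell lines and drug treatments. The members were chosen by name, as every probe mapped to one of these genes by RefSeq accession or gene symbol. The rule uses no measured value, but the members were chosen with earlier results of these data known. They are 10 of 19720 named genes and 12 of 42327 probes with a value on the arrays. MT1H and MT1X had 2 probes each and the other genes had 1. All 10 genes passed the filter on low values, which asks that some group has all of its 3 arrays well above background for the probe. MT1F, MT1G and MT1M passed it although 1 or more of their groups lay below background on all arrays.

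The cells came from Huh1 and Huh7, established human hepatocellular carcinoma (HCC) lines. Cultures received disulfiram (DSF, 0.1 µM), 5-fluorouracil (5-FU, 1 µM) or neither drug (control) over 48 hours, and cells carrying the surface marker EpCAM, which is used to enrich tumor-initiating HCC cells, were isolated by sorting. Each of the 6 groups held 3 one-color arrays, described in the methods as independent experiments, and each line is a single cell line. DSF is a drug against alcohol dependence whose metabolite binds copper, and 5-FU is a pyrimidine analogue that disturbs DNA and RNA synthesis. DSF is written with copper chloride (CuCl2) in the methods, where the medium of the control cultures is not described, so effects of DSF and of copper cannot be told apart here.

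In liver, metallothioneins buffer free zinc and bind copper and cadmium, and they also take up oxidizing species through their thiols. Transcription of the MT1 genes and MT2A is switched on by the zinc-sensing factor MTF1, which binds metal response elements (MREs) in their promoters. MT3 is known chiefly from brain and is not a typical metal-inducible member, and MT4 is known from squamous epithelium. These statements are background and were not measured here.

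Promoters are shown as background to the MREs named above, and the table used held them for 4 of the 10 members. Each line gives the 250 bases before the transcription start, 5′ to 3′, from RefSeq (GRCh38.p14, plus strand), with capitals for the letters TGCACNC or TGCGCNC of the MRE core found on either strand.
MT2A, chr16:56608334-56608583: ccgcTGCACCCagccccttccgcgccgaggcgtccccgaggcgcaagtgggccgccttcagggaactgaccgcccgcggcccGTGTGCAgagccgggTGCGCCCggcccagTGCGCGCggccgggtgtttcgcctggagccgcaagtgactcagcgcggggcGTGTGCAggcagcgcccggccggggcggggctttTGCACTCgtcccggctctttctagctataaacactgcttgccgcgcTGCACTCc
MT1B, chr16:56651636-56651885: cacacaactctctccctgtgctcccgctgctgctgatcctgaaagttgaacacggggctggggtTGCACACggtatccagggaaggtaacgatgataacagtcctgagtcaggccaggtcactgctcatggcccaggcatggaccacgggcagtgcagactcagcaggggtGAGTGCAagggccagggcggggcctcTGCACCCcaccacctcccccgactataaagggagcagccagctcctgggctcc
MT1H, chr16:56669564-56669813: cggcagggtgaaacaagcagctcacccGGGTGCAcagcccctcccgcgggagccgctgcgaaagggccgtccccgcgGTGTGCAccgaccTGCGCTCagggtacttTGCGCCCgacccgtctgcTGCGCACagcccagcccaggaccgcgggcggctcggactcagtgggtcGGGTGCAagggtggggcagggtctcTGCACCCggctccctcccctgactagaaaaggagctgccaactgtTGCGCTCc
MT1X, chr16:56682220-56682469: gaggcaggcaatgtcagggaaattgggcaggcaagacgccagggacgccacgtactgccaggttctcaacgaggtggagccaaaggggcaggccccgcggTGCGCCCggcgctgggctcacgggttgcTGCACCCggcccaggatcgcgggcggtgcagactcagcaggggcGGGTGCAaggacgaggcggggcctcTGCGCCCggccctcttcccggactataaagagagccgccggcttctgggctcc
No matches overlapped in these windows. The core was found 7 times before MT2A, 3 times before MT1B, 8 times before MT1H and 4 times before MT1X. Among other genes named below with a window, it was found 3 times before MT4 and 1 time before SLC30A1. It was found 0 times before SLC39A10, MTF1 and HSPA1A. Whether the number of matches goes with the changes below was not tested. Of 35116 promoter windows of the same length in the table, 24.8% held at least 1 match, 1.05% at least 3, 0.208% at least 4 and 0.0142% at least 8. MT1B, MT1H and MT1X each had a match on the plus strand from -53 to -47, with positions counted back from -1 at the base before the start, and MT2A had one from -54 to -48. A match is a run of letters and does not show a bound site.

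Signals are given as the log2 of the processed spot signal minus the 75th percentile of that array, so that 0 is the level of the 75th percentile probe, and differences are on the same log2 scale. Between 59.9% and 71.1% of probes per array lay well above background, and no spot was saturated. The brightest metallothionein spot signal on any array was 70.8% of the saturation value. The arrays lay on 3 slides. All control and 5-FU arrays of 1 line shared a slide, and Huh7 DSF replicates 2 and 3 lay alone on the third slide, where 70.6% and 71.1% of probes were above background. All 9 hepatocyte markers and all 4 epithelial markers, EPCAM included, were above background on every array. Of 3 leukocyte markers with a probe, 2 to 3 were above background per array, with PTPRC and CD68 above on all. PTPRC was read from its brightest probe, and some of its other probes were above on no array. Of 3 endothelial markers, 2 to 3 were above per array, with PECAM1 and CDH5 above on all. Of 4 fibroblast markers, 0 to 4 were above per array. DCN (brighter probe) and PDGFRB were above on all 3 Huh7 5-FU arrays and on no Huh7 control array. The part of these markers in the results was not tested. Tests are from limma, fitted once over 18 arrays, with p adjusted by Benjamini-Hochberg over 29894 probes and a call at 0.05. Errors are standard errors of the fit unless given as SD.

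In control cells, most metallothionein genes were lower in Huh7 than in Huh1. Of 10 members, 8 were called lower in Huh7 (36.2% of all tested probes were), 1 was called higher (34.5% of all) and MT3 gave no call. The 3 Huh7 control arrays lay below all Huh1 control arrays for 9 members (40.1% of all probes) and above them for MT1F (37.1%). MT1E, an MT1 isoform, gave -0.42, -0.61 and -0.62 in Huh1 control and -2.79, -2.66 and -2.61 in Huh7 control, a difference of -2.14 ± 0.15 (adjusted p = 9.31e-09). MT1M gave -2.90, -3.23 and -2.92 in Huh1 and no Huh7 control array was well above background, so that its level was at least 12.8-fold lower in Huh7 (adjusted p = 5.61e-09). Among the others, MT1G was at least 4.3-fold lower (adjusted p = 5.89e-07), again with Huh7 below background. MT1F went the other way: its Huh7 control arrays gave -2.60, -2.47 and -2.49, whereas none of the Huh1 control arrays was well above background, a level at least 10-fold higher in Huh7 (adjusted p = 5.2e-08). These limits use the lowest signal well above background among all probes of the array, or the probe's own signal if higher. They hold only for the scanner's own background subtraction. With normexp correction, another background model, the fitted differences were -1.60 for MT1M, -0.81 for MT1G and 1.64 for MT1F.

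The smaller baseline differences were -0.42 ± 0.10 for MT1A, -0.80 ± 0.10 for MT1H, -1.28 ± 0.18 for MT2A, -1.39 ± 0.07 for MT1B and -1.39 ± 0.08 for MT1X, with adjusted p from 2.09e-10 (MT1B) to 0.00139 (MT1A). With spike-in scaling, described with the 5-FU results, MT1A differed by -0.35 and lost its call. MT3 differed by -0.45 ± 0.20 (adjusted p = 0.0588), and its Huh7 control arrays at 1.12, 1.01 and 0.96 were all below the Huh1 control arrays at 1.49, 1.54 and 1.41. Control arrays of the lines lay on different slides, so slide and line cannot be told apart within these values. With slide as a block, MT3 differed by -0.55 (adjusted p = 0.00615). Only the Huh1 DSF group joins these slides, through the single array of replicate 3 on the slide of the Huh7 controls. The MT3 call also appeared with median scaling (-0.61), and at -0.45 without Huh7 DSF replicate 1, 2 or 3, without the arrays of the third slide, with a fit of the control arrays alone, and among probes above background on all arrays.

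After DSF, 9 of 10 members rose in both lines by at least 18.9-fold, and MT3 stood apart from them. In samples of this kind a higher share of expressing cells and more RNA per cell cannot be told apart. In Huh1 9 were called higher, beside 23.9% of all tested probes, and in Huh7 all 10 were called higher, beside 27.3%. The median change over the 10 genes was 7.65 in Huh1 and 8.57 in Huh7, whereas the median over all tested probes was 0 and 0.08. Each DSF array of the line lay above each control array for 9 members in Huh1 (30% of all probes) and for 9 in Huh7 (33.7%), the exception being MT3 both times. Ranks were taken among probes with an array above background in both groups, 25889 in Huh1 and 27453 in Huh7. MT1G had rank 1 and MT1M rank 2 in Huh1, where MT1F had no rank because its control was undetected. In Huh7 MT1E had rank 2 and MT1F rank 11, and MT1G and MT1M had no rank for the same reason. MT1A, the member with the smallest rise apart from MT3, had rank 39 in Huh1 and 30 in Huh7.

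**Figure D1:**
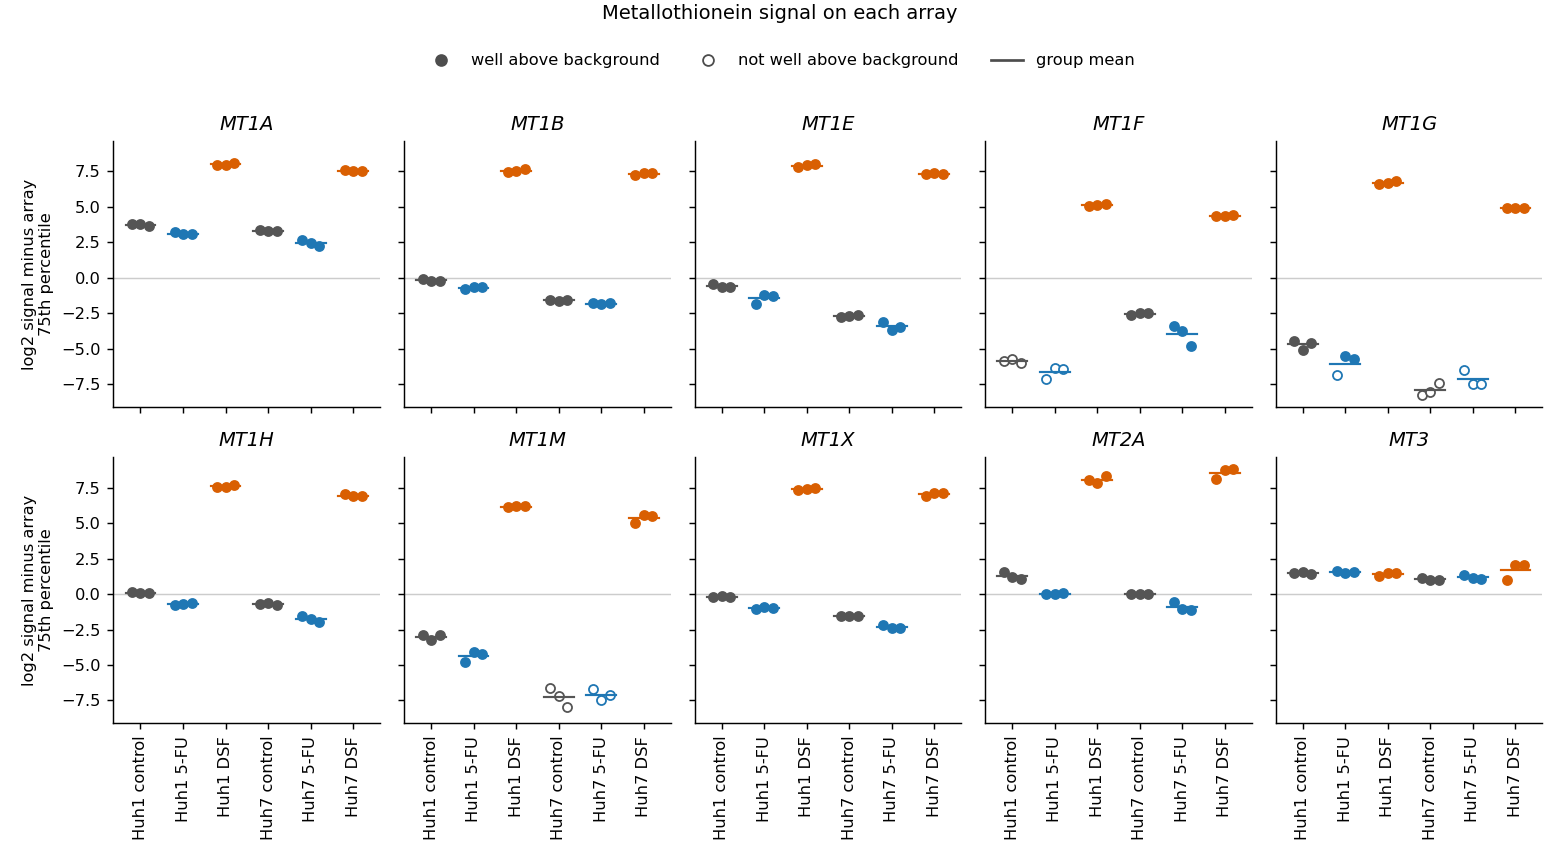
Signal of each metallothionein gene on each array (y axis, log2 minus the array 75th percentile) in the 6 groups (x axis), with a point for each of 3 arrays and a line for the group mean; open points were not well above background. For 9 genes the DSF points lie far above control and 5-FU in both lines, and for MT3 all groups lie between 0.96 and 2.04.

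MT2A, the most widely expressed metallothionein in human tissues, gave 1.52, 1.19 and 1.09 in Huh1 control and 8.01, 7.85 and 8.32 after DSF. In Huh7 it gave -0.01, -0.02 and 0.00 in control and 8.11, 8.72 and 8.79 after DSF. No treated array came near a control array in either line. The rise was 6.79 ± 0.18 in Huh1 (111-fold, adjusted p = 3.93e-12) and 8.55 ± 0.18 in Huh7 (375-fold, adjusted p = 3.47e-13).

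Among the MT1 isoforms, MT1G showed the largest measured rise in Huh1. Its control arrays there gave -4.42, -5.08 and -4.56, low but above background, and the DSF arrays gave 6.63, 6.69 and 6.80. The rise was 11.40 ± 0.33 (2690-fold, adjusted p = 1.01e-11). In Huh7 the DSF arrays all gave 4.92, while no control array was well above background, so that the rise was at least 3350-fold (adjusted p = 3.09e-12). MT1M had the same arrangement of groups. It went from -2.90, -3.23 and -2.92 to 6.12, 6.21 and 6.18 in Huh1, a rise of 9.19 ± 0.29 (584-fold, adjusted p = 2.38e-11). In Huh7 DSF it gave 5.03, 5.54 and 5.53 over a control below background, at least 4280-fold (adjusted p = 7.01e-13).

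MT1F was the mirror case, with the undetected control in Huh1. Its DSF arrays gave 5.04, 5.11 and 5.21 in Huh1, at least 2010-fold above control (adjusted p = 2.22e-12). In Huh7 it went from -2.60, -2.47 and -2.49 to 4.39, 4.33 and 4.40, a measured rise of 6.89 ± 0.28 (119-fold, adjusted p = 4.56e-10). These lower limits for MT1F, MT1G and MT1M were set as for the control levels and hold only for the scanner's own background subtraction. The MT1F limit equals its fitted rise of 10.97. With normexp correction the fitted rises lay below the limits, at 8.83 for MT1F in Huh1, 9.17 for MT1G in Huh7 and 9.40 for MT1M in Huh7. The measured rises in Huh1 were also smaller with normexp, at 10.09 for MT1G and 8.51 for MT1M.

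MT1E gave 7.80, 7.94 and 8.02 in Huh1 DSF and 7.31, 7.36 and 7.35 in Huh7 DSF, against the control values given above. Its rise was 8.47 ± 0.15 in Huh1 (353-fold, adjusted p = 4.73e-14) and 10.03 ± 0.15 in Huh7 (1040-fold, adjusted p = 5.23e-15). MT1B, MT1X and MT1H rose without any overlap of arrays. MT1B went from between -0.23 and -0.10 to between 7.49 and 7.66 in Huh1 (214-fold) and from between -1.63 and -1.53 to between 7.25 and 7.38 in Huh7 (478-fold). MT1X rose by 7.56 ± 0.08 in Huh1 (189-fold) and 8.60 ± 0.08 in Huh7 (387-fold). MT1H rose by 7.48 ± 0.10 (179-fold) and 7.63 ± 0.10 (198-fold). The adjusted p of these 3 genes ranged from 4.93e-18 to 1.01e-15.

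MT1A, whose probe already gave 3.80, 3.77 and 3.64 in Huh1 control and 3.39, 3.29 and 3.28 in Huh7 control, rose least among the 9. It reached 7.94, 7.94 and 8.10 in Huh1 DSF and 7.60, 7.56 and 7.52 in Huh7 DSF. The rise was 4.25 ± 0.10 (19.1-fold, adjusted p = 7.39e-13) and 4.24 ± 0.10 (18.9-fold, adjusted p = 7.01e-13).

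MT3, the brain-associated member, gave 1.49, 1.54 and 1.41 in Huh1 control and 1.29, 1.49 and 1.49 in Huh1 DSF. These overlap, and the change of -0.06 ± 0.20 (adjusted p = 0.832, 95% interval -0.50 to 0.37) did not pass the test. In Huh7 it gave 1.12, 1.01 and 0.96 in control and 0.99, 2.03 and 2.04 after DSF. The fit called this higher, by 0.66 ± 0.20 (adjusted p = 0.0161), but replicate 1 lay within the control range and only the 2 arrays of the third slide lay above it. With slide as a block the change was -0.04 (adjusted p = 0.861). It was -0.04 for replicate 1 against controls of the same slide and 1.01 for the 2 arrays of the third slide against the same controls. Without replicate 1 of Huh7 DSF the change was 1.01, without replicate 2 it was 0.49, without replicate 3 it was 0.48, and without Huh7 control replicate 3 it was 0.62, and the last 3 of these gave no call. The call was also lost with spike-in scaling (0.48) and in a fit of the Huh7 control and DSF arrays alone (0.66). Whether slide or treatment set the higher arrays cannot be told apart.

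The other 9 members were also compared by slide. Replicate 1 of Huh7 DSF alone, on the slide of its controls, gave rises from 4.28 (MT1A) to 10 (MT1E) for the 7 members with a detected control, and replicates 2 and 3 gave 4.22 to 10.04 for the same genes. MT2A differed most between the slides, at 8.12 for replicate 1 and 8.76 for replicates 2 and 3. In Huh1, replicates 1 and 2 of DSF against controls of the same slide gave 4.20 (MT1A) to 11.35 (MT1G).

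**Figure D2:**
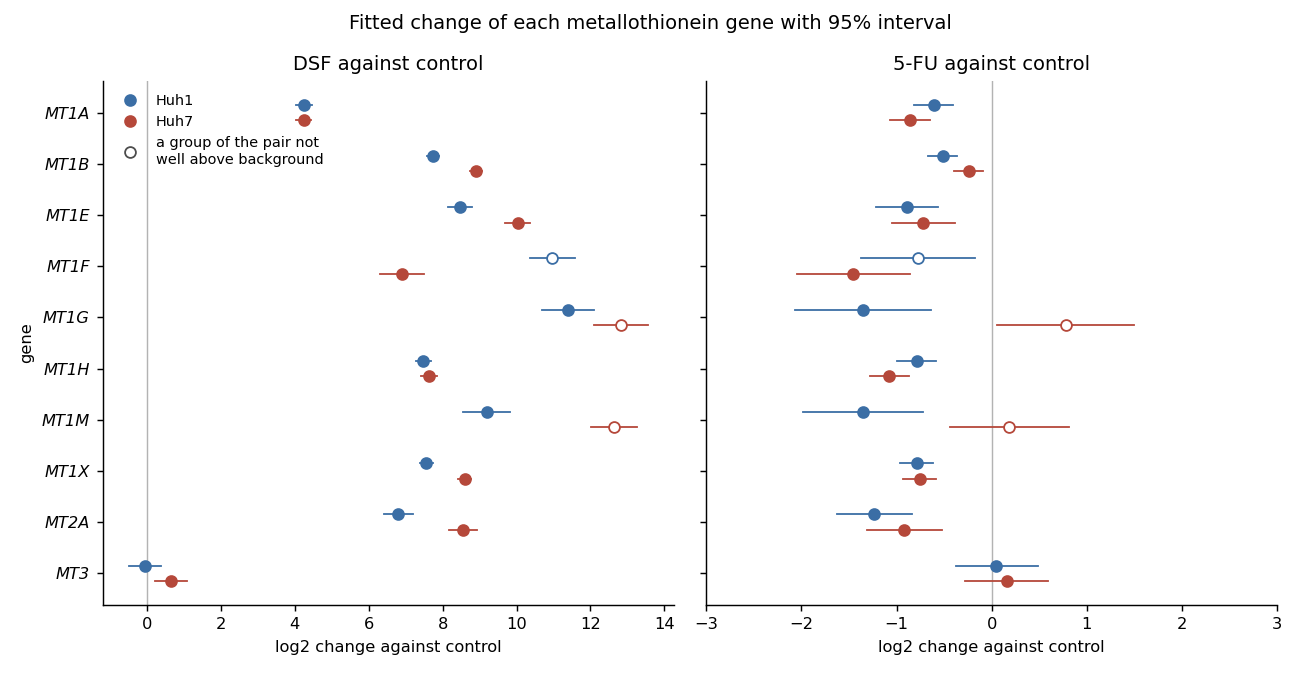
Fitted log2 change against control (x axis) of each metallothionein gene (y axis) after DSF (left) and 5-FU (right), with 95% intervals, in Huh1 and Huh7; open points have a group that was not well above background on any array. The filled DSF points of 9 genes lie between 4.24 and 11.40 and their filled 5-FU points between -1.46 and -0.24; scaling on spike-in probes, which moves every gene alike, puts 4 of these 8 filled 5-FU points in Huh1 and 5 of 7 in Huh7 above 0. The x axes of the panels differ.

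The test of the line difference in the DSF rise called 7 of 10 members, and 4 of them were above background in every group. The fit gave a larger rise in Huh7 for 6 (21.1% of all tested probes were called so) and a smaller one for MT1F (19.2% of all). MT2A differed by 1.76 ± 0.26 (adjusted p = 0.000123), MT1E by 1.56 ± 0.22 (adjusted p = 7.49e-05), MT1B by 1.16 ± 0.10 (adjusted p = 1.39e-06) and MT1X by 1.04 ± 0.11 (adjusted p = 1.01e-05). Without the arrays of the third slide the MT2A difference was 1.33. The MT1A difference did not pass, at -0.01 ± 0.14 (adjusted p = 0.954, 95% interval -0.31 to 0.28), nor did that of MT1H, at 0.15 ± 0.14 (adjusted p = 0.414, 95% interval -0.15 to 0.44). The MT1H value is from its brighter probe. Its dimmer probe gave a fitted -4.00 ± 0.49 (adjusted p = 2.61e-05), but it was below background in both control groups, so this size was not measured. MT3 gave 0.72 ± 0.29 (adjusted p = 0.0591) and passed with median scaling (0.87), among probes above background on all arrays (0.72) and without Huh7 DSF replicate 1 (1.07), but without the arrays of the third slide it was 0.02.

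The other 3 called members each had a control group below background, so the sizes of their differences depend on the background correction. With the Huh7 rise at its lower limit, the MT1M difference was 2.87 (fitted difference 3.45 ± 0.41, adjusted p = 2.17e-05), and with normexp correction it was 0.88. With the Huh1 rise at its lower limit, MT1F gave -4.08 (± 0.39, adjusted p = 3.38e-06), and -2.33 with normexp. MT1G passed at 1.43 ± 0.47 (adjusted p = 0.0265) on Huh7 control signals below background, and at the lower limit of its Huh7 rise the difference was 0.31. It missed the threshold with spike-in scaling (1.12), with slide as a block (1.48) and without the arrays of the third slide (1.44), and with normexp correction it turned to -0.92. The call was also lost without Huh1 control replicate 1 (1.30) or 3 (1.37), without Huh1 DSF replicate 1 (1.40), and without Huh7 control replicate 1 (1.26) or 2 (1.36).

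The levels reached after DSF were closer between the lines than the control levels for most members. Over the 6 members detected on every control and DSF array, MT3 left out, Huh7 minus Huh1 ranged from -2.14 to -0.42 in control, with a median of -1.34, and from -0.65 to 0.48 after DSF, with a median of -0.39. MT1A was an exception, at -0.42 in control and -0.43 after DSF. MT1H was read here from the brighter of its probes. Its dimmer probe, below background in both control groups, averaged 5.97 after DSF in Huh1 and 0.7 in Huh7. The difference after DSF was -0.58 for MT1E and -0.23 for MT1B, and among the members with an undetected control it was -0.80 for MT1M, -0.75 for MT1F and -1.79 for MT1G. In 8 of 10 members all Huh7 DSF arrays lay below all Huh1 DSF arrays (37.2% of all tested probes did), and MT2A and MT3 overlapped. These differences after DSF are given as values without a test of their own. For each gene, the line difference in the DSF rise is the difference after DSF minus that in control. The lower Huh7 control levels, the larger Huh7 rises and the closer DSF levels are therefore not separate results.

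**Figure D3:**
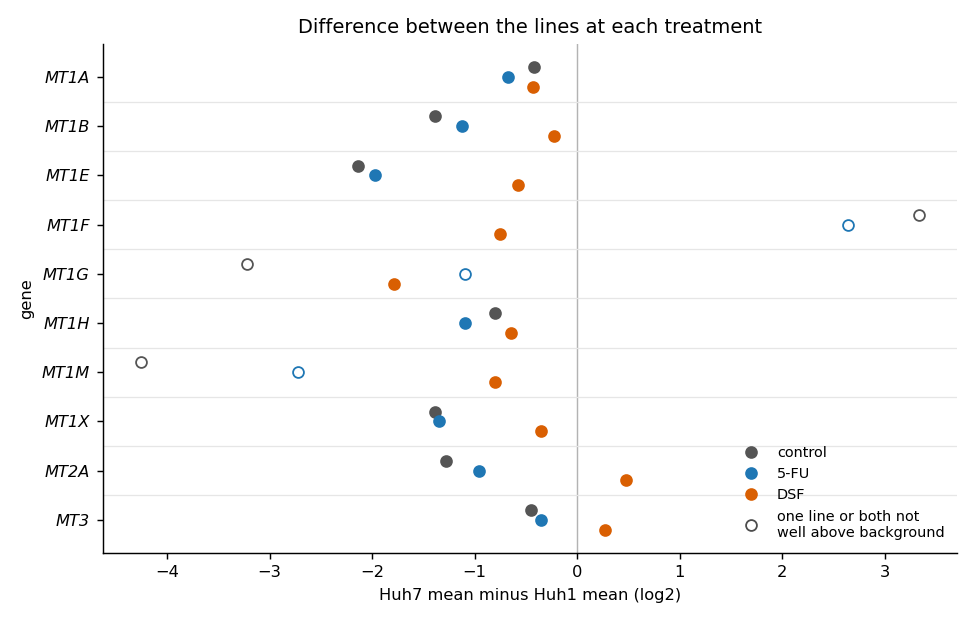
Difference between the group means of Huh7 and Huh1 (x axis, log2) for each metallothionein gene (y axis) in control, 5-FU and DSF cells; open points have a line that was not well above background on any array. After DSF the points lie between -1.79 and 0.48, and the filled control points between -2.14 (MT1E) and -0.42 (MT1A); open points give no exact size.

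After 5-FU the metallothionein signals were lower than in control relative to the rest of the array, by much smaller amounts than the DSF rise. In Huh1 9 members were called lower (26% of all tested probes were) and in Huh7 7 were (29.7%), and limma called none higher. At an unadjusted p under 0.05 MT1G in Huh7 was higher (0.78), where it lay below background in both groups, and no other member was. With arrays scaled on spike-in probes, which raised the 5-FU change of every gene alike, no member was called lower, as described below. The comparisons with DSF use the same control arrays. The median change was -0.79 in Huh1 and -0.74 in Huh7 (-0.81 without MT1G and MT1M, undetected there), beside -0.03 and -0.05 over all tested probes. All 5-FU arrays lay below all control arrays for 9 members in Huh1 (30.8% of all probes) and 7 in Huh7 (34.9%).

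MT2A gave 0.01, 0.00 and 0.08 after 5-FU in Huh1 and -0.59, -1.07 and -1.13 in Huh7, below every control array of its line. The change was -1.24 ± 0.18 (adjusted p = 7.6e-05) and -0.92 ± 0.18 (adjusted p = 0.000622). MT1A gave 3.26, 3.06 and 3.06 in Huh1 and 2.67, 2.48 and 2.22 in Huh7, also without overlap, and changed by -0.61 ± 0.10 and -0.86 ± 0.10. MT1E changed by -0.89 ± 0.15 and -0.72 ± 0.15, MT1X by -0.79 ± 0.08 and -0.75 ± 0.08, MT1H by -0.78 ± 0.10 and -1.08 ± 0.10, and MT1B by -0.51 ± 0.07 and -0.24 ± 0.07, in Huh1 and Huh7 in that order. The adjusted p of these 5 genes ranged from 3.12e-07 to 0.00921.

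The low-signal members gave less. MT1M fell in Huh1, from -2.90, -3.23 and -2.92 to -4.81, -4.06 and -4.24, by 1.35 ± 0.29 on the log2 scale (adjusted p = 0.0016). MT1G had 2 of 3 Huh1 5-FU arrays above background, at -5.53 and -5.74, and its fitted change was -1.35 ± 0.33 (adjusted p = 0.00404). With normexp these changes were -0.75 for MT1M and -0.45 for MT1G, both still called. In Huh7 both genes were below background in control and 5-FU alike, so no change could be measured. The fitted 0.78 of MT1G there became a call with quantile normalization (0.87), with spike-in scaling (1.76), and without Huh1 5-FU replicate 1 (0.78), Huh7 control replicate 3 (1.03), or Huh7 5-FU replicate 2 (0.95) or 3 (0.94). MT1F was below background in both Huh1 groups, so its Huh1 call carries no fold, and it also lost the call without Huh1 control replicate 1 (-0.77) or 2 (-0.71), without Huh1 5-FU replicate 1 (-0.51), without the arrays of the third slide (-0.77), with slide as a block (-0.77, adjusted p = 0.0501), with normexp (-0.10, adjusted p = 0.591) and with spike-in scaling (0.06). In Huh7 MT1F gave -3.38, -3.74 and -4.81 after 5-FU, a change of -1.46 ± 0.28 (adjusted p = 0.000425). MT3 gave no call, at 0.05 ± 0.20 in Huh1 (95% interval -0.38 to 0.49) and 0.16 ± 0.20 in Huh7 (-0.28 to 0.59).

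The sign of the 5-FU changes against control depended on the scaling for part of the members. The 75th percentile of the arrays was 10.146 to 10.216 on the log2 scale in Huh1 control and 10.638 to 10.719 after 5-FU, and 10.118 to 10.157 in Huh7 control and 10.631 to 10.839 after 5-FU. Relative to 7 spike-in probes, the 75th percentile was -3.26 ± 0.02 (SD, n = 3) in Huh1 control and -2.43 ± 0.02 after 5-FU, and -3.19 ± 0.08 in Huh7 control and -2.21 ± 0.16 after 5-FU. When arrays were scaled on the spike-in probes, the median 5-FU change of all tested probes became 0.80 in Huh1 and 0.93 in Huh7. Of all tested probes, 75.1% were then called higher in Huh1 and 76.5% in Huh7. No member was called lower by limma in either line, also at an unadjusted p under 0.05, and MT1B and MT3 were called higher in Huh1 and MT1B, MT3, MT1G and MT1M in Huh7. The last pair lay below background there. As this scaling moves every probe alike, the members below the median of all probes were the same as before and give no separate result. They were 9 in Huh1, with MT3 above, and 7 in Huh7, with MT3, MT1G and MT1M above. DSF changes moved by at most 0.14 in Huh1 and 0.18 in Huh7 under the same scaling.

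**Figure D4:**
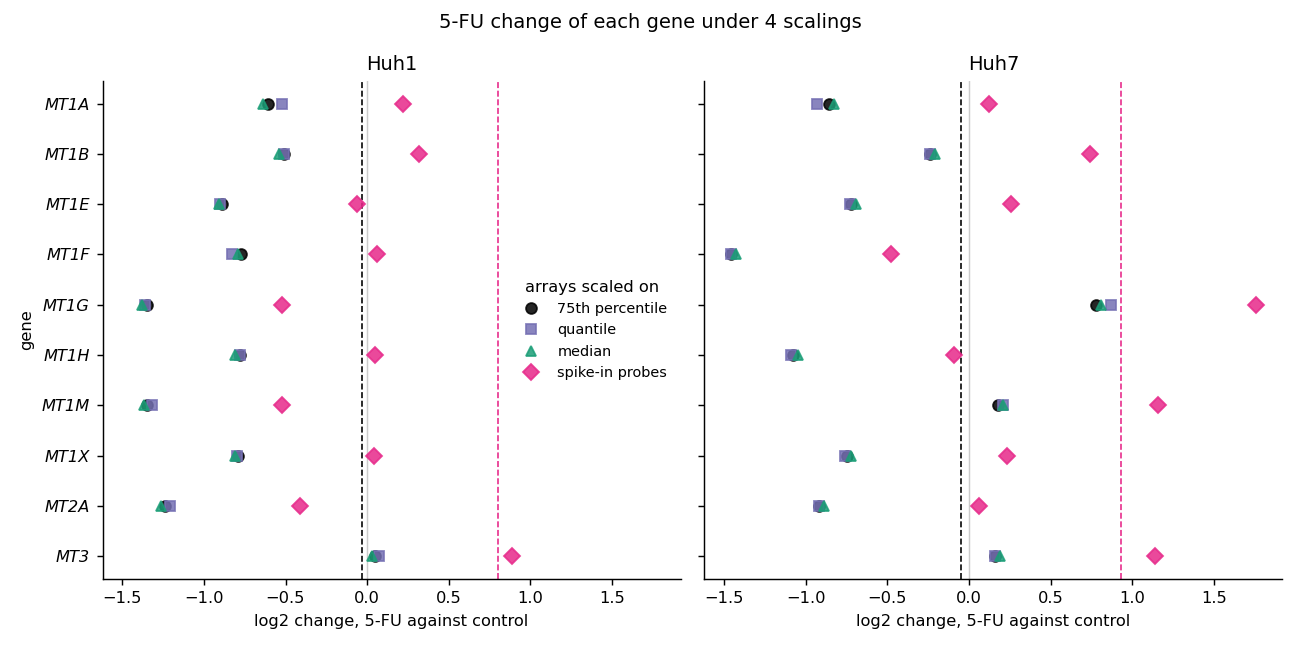
Log2 change of each metallothionein gene after 5-FU (x axis) in Huh1 (left) and Huh7 (right), with a marker for each of 4 scalings of the arrays and dashed lines at the median of all tested probes under the 75th percentile and spike-in scalings. With spike-in scaling all points move right, by 0.83 in Huh1 and 0.98 in Huh7, and 6 of 10 genes in Huh1 and 8 in Huh7 lie above 0.

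No member above background in both lines gave a call for a difference between the lines in the 5-FU change, while 18.8% of all tested probes were called higher in Huh7 and 17.8% lower. The fit called MT1G and MT1M, but both were undetected in Huh7 control and 5-FU, so the difference was not measured for them. MT1B, at 0.27 ± 0.10 (adjusted p = 0.0516), lay just outside the threshold. It passed in 8 alternatives: with quantile normalization (0.27), median scaling (0.32), normexp (0.24), the deposited value table (0.27), slide as a block (0.27, adjusted p = 0.0389), among probes above background on all arrays (0.27), and without Huh1 5-FU replicate 3 (0.31) or Huh7 DSF replicate 1 (0.27). MT1A was called lower in Huh7 with quantile normalization (-0.40) and normexp (-0.37), and MT1F with normexp (-0.83), its Huh1 groups being undetected. Without Huh7 5-FU replicate 1, MT1A (-0.35), MT1F (-0.99) and MT1H (-0.39) were called lower in Huh7. Among the others, MT1E, MT1X, MT2A and MT3 differed by 0.04 (MT1X) to 0.32 (MT2A).

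Set directly against 5-FU, DSF gave higher signals for 9 members in Huh1 (28.7% of all tested probes) and 10 in Huh7 (35.6%). The median differences were 8.31 and 9.25, beside 0.08 and 0.12 over all tested probes. MT3 differed by -0.12 ± 0.20 in Huh1 (adjusted p = 0.673). Its Huh7 difference of 0.50 ± 0.20 (adjusted p = 0.0441) turned to -0.19 without the arrays of the third slide and to -0.65 with spike-in scaling. That call was also lost with slide as a block (-0.19), with quantile normalization (0.49), without the filter on dim probes, with the replicate number as a block and in a fit of those 2 groups alone (each 0.50), and on leaving out most single arrays, those of Huh1 included. These differences share arrays with the comparisons against control.

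Ordering the 6 groups by their mean gave the same sequence for MT1B, MT1E and MT1X: Huh7 5-FU, Huh7 control, Huh1 5-FU, Huh1 control, Huh7 DSF and Huh1 DSF, from low to high, with no overlap between neighbours. MT1H followed it with overlap of Huh7 control and Huh1 5-FU. MT1A differed in that Huh1 5-FU lay below Huh7 control. MT2A ended with Huh1 DSF and then Huh7 DSF, which overlapped. MT1F began with both low Huh1 groups, and MT1G and MT1M began with both Huh7 groups below background. For MT3 every neighbouring pair overlapped. The place of the 5-FU groups in these orders holds for 75th percentile scaling.

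MT1H and MT1X were read by a second, dimmer probe. The dimmer MT1X probe moved like the brighter one, by 6.69 ± 0.18 after DSF in Huh1 and 7.92 ± 0.18 in Huh7 and by -0.81 ± 0.18 and -1.42 ± 0.18 after 5-FU. For MT1H the probes disagreed. The dimmer probe lay below background in both control groups and gave 5.94, 5.94 and 6.03 after DSF in Huh1 but 0.36, 0.87 and 0.87 in Huh7. Its rise was at least 5170-fold in Huh1 and at least 180-fold in Huh7, and it passed the filter only through the DSF groups. The fitted difference of its DSF effect between the lines was -4.00 ± 0.49 (adjusted p = 2.61e-05). That value rests on control signals below background in both lines, so its size was not measured. The brighter probe showed 0.15 ± 0.14. With the mean of both probes the MT1H line difference was -1.93, which carries the same limit as the dimmer probe. Metallothionein genes are near-identical in sequence, and how far a probe reads its neighbours in the family was not tested, since probe sequences were not used here.

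The 10 genes lie in 1 run on chromosome 16, which holds 19 annotated loci from MT4 to MT1X, 16 of them of the family. Other family loci with a probe include MT1L, MT1DP and MT1IP, annotated in RefSeq as transcribed pseudogenes, and MT4. MT1L was among the loci with a large rise after DSF. It gave -0.06, -0.18 and -0.22 in Huh1 control and 7.69, 7.64 and 7.80 after DSF, and -1.98, -1.97 and -2.02 in Huh7 control and 7.27, 7.55 and 7.55 after DSF. Its rise was 7.87 ± 0.11 (adjusted p = 1.53e-15) and 9.45 ± 0.11 (adjusted p = 1.63e-16). MT1DP rose by at least 13-fold in Huh1 and at least 3.75-fold in Huh7, and MT1IP by at least 6.01-fold in Huh1. In Huh7 the fitted MT1IP rise was 1.72 ± 0.21 on the log2 scale, with 1 of 3 control arrays well above background. For MT1DP and MT1IP only the DSF groups had all 3 arrays above background. They passed the filter through these groups alone, which favors a rise. MT4 was not well above background on any array and was not tested.

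Genes next to the run changed little. BBS2, a component of the complex that carries cargo to cilia, differed by 0.11 ± 0.08 in Huh1 and 0.01 ± 0.08 in Huh7 after DSF, and NUP93, a nuclear pore protein, by -0.11 ± 0.06 and 0.01 ± 0.06, with no call for either. OGFOD1, a prolyl hydroxylase of a ribosomal protein, rose by 0.43 ± 0.09 (adjusted p = 0.000876) and 0.29 ± 0.09 (adjusted p = 0.014).

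**Figure D5:**
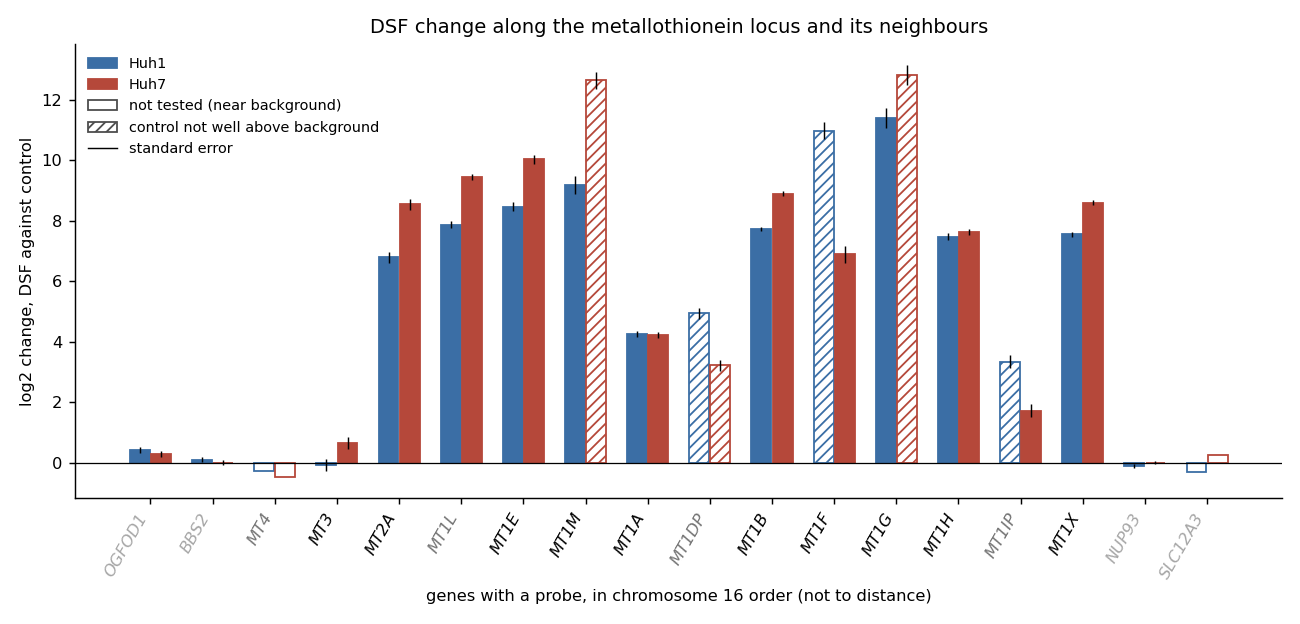
Log2 change after DSF (y axis) of genes with a probe in their order along chromosome 16 (x axis, not to distance), as bars for Huh1 and Huh7 with standard errors; hatched bars have a control group below background and unfilled bars were not tested. The unhatched bars of 9 members and MT1L stand between 4.24 and 11.40, that of MT1IP in Huh7 at 1.72, and those of MT3 and the tested flanking genes between -0.11 and 0.66. In the Huh7 control of MT1IP, 1 of 3 arrays was well above background.

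Other genes of metal handling and of the stress response were counted over a list of 20 after DSF. The list held MTF1, SLC30A1, SLC30A5, SLC30A7, SLC30A10, SLC31A1, SLC31A2, SLC39A10, SLC39A14, ATP7A, ATP7B, ATOX1, CCS and COX17. It also held the redox and stress genes HMOX1, HSPA1A, GCLC, SELENOH, TXNRD1 and NDRG1, so the counts are not of metal handling alone. In Huh1 5 were called higher (23.9% of all tested probes were) and 9 lower (20.3% of all), with a median change of -0.17 beside 0 over all probes. In Huh7 7 were called higher (27.3% of all) and 7 lower (19.4% of all), with a median of 0.02 beside 0.08. Scaled on spike-in probes, 5 were higher (23.8% of all) and 6 lower (7.93%) in Huh1, while 5 were higher (10.8%) and 7 lower (20.4%) in Huh7. Scaled on the array median, 2 were higher (15.9%) and 12 lower (32.2%) in Huh1, while 6 were higher (24.7%) and 7 lower (18.4%) in Huh7. SLC30A1, which exports zinc from the cell and is like the MT1 genes a target of MTF1, gave 1.25, 1.28 and 1.28 in Huh1 control and 3.95, 3.90 and 3.86 after DSF. It gave 1.09, 1.09 and 1.15 in Huh7 control and 3.92, 3.83 and 3.80 after DSF. The groups were far apart in both lines, and the rise was 2.64 ± 0.11 (adjusted p = 6.23e-10) and 2.74 ± 0.11 (adjusted p = 5.86e-10). SLC30A1 also rose after 5-FU, by 1.52 ± 0.11 in Huh1 and 0.74 ± 0.11 in Huh7, and its change was positive under all 4 scalings.

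MTF1 itself rose in both lines, by 0.35 ± 0.10 (Huh1, adjusted p = 0.00886) and 0.46 ± 0.10 (Huh7, adjusted p = 0.00162). The zinc importer SLC39A10 changed by -0.56 ± 0.10 and -1.21 ± 0.10, and ATP7B, the copper-exporting ATPase of hepatocytes, by -1.18 ± 0.10 and -0.40 ± 0.10, in Huh1 and Huh7 in that order and all past the test. HMOX1, which breaks down heme, gave 0.04 ± 0.16 in Huh1 (adjusted p = 0.86), where its control arrays already stood at 6.22 to 6.31, and 1.51 ± 0.16 in Huh7 (adjusted p = 3.74e-06). HSPA1A, a stress-inducible heat shock protein with a near-identical neighbour gene, rose by 1.63 ± 0.14 in Huh1. In Huh7 no HSPA1A control array was well above background, and the rise was at least 276-fold (adjusted p = 3.83e-15).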

How the data were processed

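The 18 one-color Agilent arrays held RNA of sorted EpCAM+ Huh1 and Huh7 cells, 3 per group. The authors deposited Feature Extraction output (version 10.7.1.1 per the submitters' processing notes), in which each spot has a processed signal intensity, already background-subtracted. They also deposited a value table, a ratio of each array's signal to its own 75th percentile. Within 0.05 log2 units, 100% of its values matched the scanner values after centring.

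Spots marked as outliers (316 to 447 per array) were left out, spots of a probe were averaged, and the log2 intensity minus the array's 75th percentile was used. Gene names came from RefSeq accessions, which named 25736 of 27099 such probes, and from symbols. A gene was read from its probe with the highest mean signal. Of 42327 probes, 29894 were tested with limma 3.58.1 (R 4.3.3) by lmFit and eBayes on 6 group means, with Benjamini-Hochberg adjustment. An exact rank test of 3 against 3 arrays cannot go below p = 0.1. Where all arrays of a group were not well above background, a fold is a lower limit against the higher of the array's lowest signal well above background and the probe's own signal. That lowest signal is taken over all probes of the array and is not a detection limit of the probe. The limits therefore hold only under this rule and the scanner's background subtraction. The fit was tested on simulated data. The number of arrays limits the precision.

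The members and gene lists were chosen with earlier results of these data known. Genes given with values are the 10 members, other loci of the family with a probe, and the neighbours of the run. Also given are 6 genes of the metal and stress list, and the 6 whose pattern over the arrays was most like the members' mean. MRE cores were searched on both strands. Alternatives covered normalization, background correction, filters, slide and replicate blocks, the value table, and leaving out arrays. Replicate numbers did not pair the arrays: over 45 same-numbered pairs, deviations from group means correlated with a median of -0.025 (-0.093 to 0.103).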

Additional observations from a re-analysis of the deposited data

Results flagged for a closer look

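The test of the difference between the lines singled out 9 results. For DSF, the rise in Huh7 minus the rise in Huh1 was 1.16 for MT1B, 1.56 for MT1E, 1.04 for MT1X, 1.76 for MT2A, 3.45 for MT1M, 1.43 for MT1G and -4.08 for MT1F, on the log2 scale. For 5-FU, the difference was 2.13 for MT1G and 1.53 for MT1M. MT1B, MT1E, MT1X and MT2A were above background in every group. The DSF values of MT1F, MT1G and MT1M rest on a control group below background in Huh1 (MT1F) or Huh7 (MT1G and MT1M), and with normexp correction they were -2.33, -0.92 and 0.88. The 5-FU values of MT1G and MT1M set Huh1 against Huh7 groups that were both below background, and with normexp they were 0.57 and 0.81.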

How the results depend on the processing

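Of 72 called results on single genes, 2135 alternatives gave 2073 with the direction and call kept, 46 without the call and 16 with the direction turned. The DSF rises of all members but MT3 kept their call in every alternative run. With the replicate number as a block, 9 members were called higher after DSF in Huh1 and 10 in Huh7, and of single-gene calls only MT3 between DSF and 5-FU in Huh7 was lost (0.50).

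Spike-in scaling changed the 5-FU results. The count of members called lower became 0 in both lines, and higher 2 in Huh1 and 4 in Huh7. In Huh1 MT1A became 0.22, MT1B 0.32, MT1F 0.06, MT1H 0.05 and MT1X 0.04. In Huh7 MT1A became 0.12, MT1B 0.74, MT1E 0.26, MT1X 0.23 and MT2A 0.06. Members lower after DSF than after 5-FU became 1 in each line, beside 62.9% of all tested probes in Huh1 and 80.7% in Huh7, with MT3 at -0.65 in Huh7. MT3 after DSF became 0.08 in Huh1, and the MT1H line difference -0.17. Quantile normalization called 1 member higher after 5-FU in Huh7, and gave 1 member with a lower 5-FU effect in Huh7.

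MT3 in Huh7 turned to -0.04 after DSF with slide as a block and without the third-slide arrays, and to -0.19 against 5-FU in both. The MT1A line difference for DSF became 0.14 with median scaling, 0.08 with slide as a block and 0.03 without the third-slide arrays. Normexp correction gave 2 members with a smaller DSF rise in Huh7 and 2 with a lower 5-FU effect, turned the DSF line difference of MT1G to -0.92, and shrank that of MT1M from 3.45 to 0.88 and that of MT1F from -4.08 to -2.33. The mean of all probes put MT1H at -1.93, its dimmer probe being below background in both control groups, and the MT1X 5-FU difference at -0.28. It also gave 2 members with a smaller DSF rise. Among probes above background on all arrays, these counts were 0 for a smaller DSF rise, 1 for a higher 5-FU effect and 0 for members higher in Huh7 control; fewer members were tested there.

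Leaving out each array in turn, members called higher after 5-FU in Huh7 ranged from 0 to 1, and members with a lower 5-FU effect in Huh7 from 0 to 3, the latter without Huh7 5-FU replicate 1. MT3 after DSF in Huh1 ranged from -0.10 to 0.00, the latter without Huh1 DSF replicate 1. MT1M after 5-FU in Huh7 ranged from -0.17 to 0.50. The DSF line difference of MT1A reached 0.04, 0.02 and 0.01. The 5-FU line difference ranged from -0.03 to 0.29 for MT1E and from -0.05 to 0.09 for MT1X, with -0.01 without Huh1 5-FU replicate 1. The cause of these changes was not tested.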

Other observations

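Outside the family, 5 genes had a pattern over the 18 arrays nearly as close to the mean of the 10 members as MT1L did (Pearson r = 0.997, n = 18). Among 15834 genes compared, these were ABCA13 (r = 0.992), a lipid transporter of the ABC family, TCERG1L (r = 0.991), HSPA6 (r = 0.99), a stress-inducible heat shock protein, MLC1 (r = 0.984) and SPRR2E (r = 0.978), an epidermal cornified-envelope protein. The arrays share the DSF step, and over the 12 arrays without DSF r was 0.963 for MT1L, 0.818 for HSPA6, 0.683 for TCERG1L, 0.614 for ABCA13, 0.5 for MLC1 and 0.427 for SPRR2E. After DSF in Huh1 and Huh7 the fitted log2 change was 7.10 and 8.19 for HSPA6, 7.48 and 5.90 for MLC1, 6.09 and 5.56 for ABCA13, 3.66 and 3.39 for TCERG1L and 3.31 and 2.77 for SPRR2E. For these genes no lower limit was set where a control lay below background, so the sizes are not comparable with those of the members.

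TESMIN, which carries metallothionein-like cysteine repeats and lies outside the run, was read by a pair of probes that disagreed in Huh1, at 0.44 ± 0.17 and -0.42 ± 0.24 after DSF. In Huh7 both were lower, at -1.49 ± 0.17 and -1.13 ± 0.24.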
